A study of Mus musculus with 3 samples.

Results

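The 32 genes described here encode subunits of the vacuolar proton pump, lysosomal membrane proteins, lysosomal hydrolases and their activators, and 2 transcription factors of lysosome genes. They were chosen by gene symbol from the 32285 genes counted in each of 3 single-cell RNA libraries of mouse lung, and each of the 32 symbols was found once. Their UMI counts (unique molecular identifiers, 1 per captured transcript) were read in barcodes with at least 1000 UMIs, at least 500 genes and at most 10% mitochondrial UMIs. These were 2947 barcodes in WT Healthy, 4374 in WT Tumor and 5137 in PPARγ-/- Tumor.

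All 3 groups carried Ccsp-rtTA and TetO-EGFRL858R, a doxycycline-inducible mutant EGF receptor expressed from the lung epithelium, and were fed doxycycline chow at 625 ppm. WT Healthy carried these transgenes alone, WT Tumor also Pparγfl/fl, and PPARγ-/- Tumor Pparγfl/fl with Csf1rCre. The Csf1r promoter drives Cre in monocytes and macrophages, and Pparγ encodes a lipid-activated nuclear receptor that alveolar macrophages need for their maturation. Each group was 1 library from 3 pooled mice of 16 to 20 weeks. Sorting by surface proteins gave 4 populations (alveolar macrophages, CD11b+ macrophages without Ly6G, CD3+ T cells, EPCAM+ epithelium), which were mixed in equal parts. With 1 library per group no difference between groups could be tested, and every interval below covers counting error only.

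The series title names another subject, and the groups follow the sample labels. The libraries held 30454790 to 46148658 UMIs, and 15 cell barcodes were kept in more than 1 library. The female transcript Xist was at 1235 CPM (UMIs scaled to a total of 1e6) in WT Healthy and at or under 0.305 CPM in the tumour libraries, whereas Y-linked Ddx3y was at 0.132 CPM in WT Healthy and at 74.4 CPM or more in the others. The labels say that both sexes were used. WT Tumor and WT Healthy thus differ in sex and in the floxed alleles as well as in tumour, and these cannot be told apart. Pparg counts in the main macrophage clusters were 197, 172 and 376 CPM in WT Healthy, WT Tumor and PPARγ-/- Tumor. Counts near the 3′ end of a transcript do not check a deletion elsewhere in the gene.

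The vacuolar ATPase pumps protons into endosomes and lysosomes. Its V1 sector hydrolyses ATP in the cytosol and turns a rotor in the membrane-bound V0 sector, and the resulting acid activates the hydrolases inside. Macrophages rely on lysosomes to digest engulfed material, and alveolar macrophages clear used surfactant through them. TFEB and TFE3 are related transcription factors that bind E-box motifs in promoters of many lysosome genes, with TCACGTGA as the usual core.

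That core was looked for in RefSeq promoters (build GRCm38.p6), each 250 bases before to 50 after a gene's start, on both strands. Of the 32 genes, 27 had a promoter in the table. Starts are those of RefSeq. For Atp6v0e and Atp6v1a the GENCODE annotation places the start of the gene upstream of that window. These starts are position 26663231 of chromosome 17 for Atp6v0e and position 44139705 of chromosome 16 for Atp6v1a. The core TCACGTGA was in the promoters of 4 of the 27 (14.8%), against 1.12% of all genes in the table. The shorter CACGTG, which the longer core contains, was in 7 of 27 (25.9%), against 8.09% of all genes. The core extended by G before it and C after it was in none of the 27, against 0.37% of all genes. The 7 genes that hold CACGTG are shown because this sequence is what they share beyond their place in the list. Capitals mark the longest match, and all are written 5′ to 3′ on the strand of the gene.
Atp6v0d1, chr8:105566050-105566079, minus strand: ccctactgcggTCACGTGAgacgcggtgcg
Atp6v0e, chr17:26676387-26676416, plus strand: tagcgcgccgaTCACGTGAgcctctgttga
Atp6v1a, chr16:44139373-44139402, minus strand: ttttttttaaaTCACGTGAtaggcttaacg
Mcoln1, chr8:3500462-3500491, plus strand: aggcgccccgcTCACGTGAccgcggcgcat
Atp6v0b, chr4:117887348-117887377, minus strand: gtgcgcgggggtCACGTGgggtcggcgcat
Gaa, chr11:119267811-119267840, plus strand: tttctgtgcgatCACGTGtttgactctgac
Lamp1, chr8:13158911-13159160, plus strand: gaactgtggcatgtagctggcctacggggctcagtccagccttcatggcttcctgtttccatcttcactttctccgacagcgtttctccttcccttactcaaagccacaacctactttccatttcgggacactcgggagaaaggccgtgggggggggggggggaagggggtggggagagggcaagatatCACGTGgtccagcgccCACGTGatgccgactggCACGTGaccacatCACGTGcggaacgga
Lamp1, which encodes a major glycoprotein of the lysosomal membrane, held 4 copies of CACGTG in the 250 bases before its start. A match is a description of the letters and not evidence of binding.

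The 32 genes were read first across cell types, and the reference class was the main macrophages, the largest non-cycling macrophage cluster of each library. These were cluster 11 in WT Healthy (893 cells), cluster 14 in WT Tumor (952) and cluster 17 in PPARγ-/- Tumor (1155). Clusters 11 and 14 raised 10 and 9 of 10 alveolar macrophage markers. Cluster 17 raised 5 of those 10 and 6 of 12 interstitial or monocyte-derived macrophage markers. Its Marco, an alveolar scavenger receptor, was at 0.255 CPM against 564 in cluster 11 and 330 in cluster 14. Its C1qa, a complement gene of interstitial macrophages, was at 1890 CPM against 0.339 and 3.14. Cluster 17 is therefore called by its number and not alveolar. The 32 genes, a wider list of 71 lysosome genes and Pparg were left out of the genes used for clustering.

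The 32 genes together made up 14196, 18383 and 21017 CPM of the main macrophages in WT Healthy, WT Tumor and PPARγ-/- Tumor. The same sum was 1474, 1640 and 1556 CPM in T cells and 3585, 3346 and 3489 CPM in endothelial cells. It was 7361, 6834 and 6483 CPM in nonclassical monocytes and 9903, 8762 and 8988 CPM in classical monocytes. The sum is weighted towards genes with many UMIs, above all Psap. Macrophages ranked highest in every library, monocytes below them and T cells lowest of these classes.

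The words higher and lower are used of a gene from here on where its CPM differed at least 1.5-fold and the 95% counting interval of the ratio excluded 1. By this rule 31 of the 32 genes were higher in the main macrophages than in T cells in each of the 3 libraries, against 26.7% of all genes measured. The count was 29 over B cells (all genes 11%) and 27 over endothelial cells (all genes 12.7%). It was 23 over nonclassical monocytes (all genes 14.9%) and 18 over classical monocytes (all genes 8.54%). The gene that missed the count over T cells was Atp6v1d, a subunit of the V1 central stalk.

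**Figure D1:**
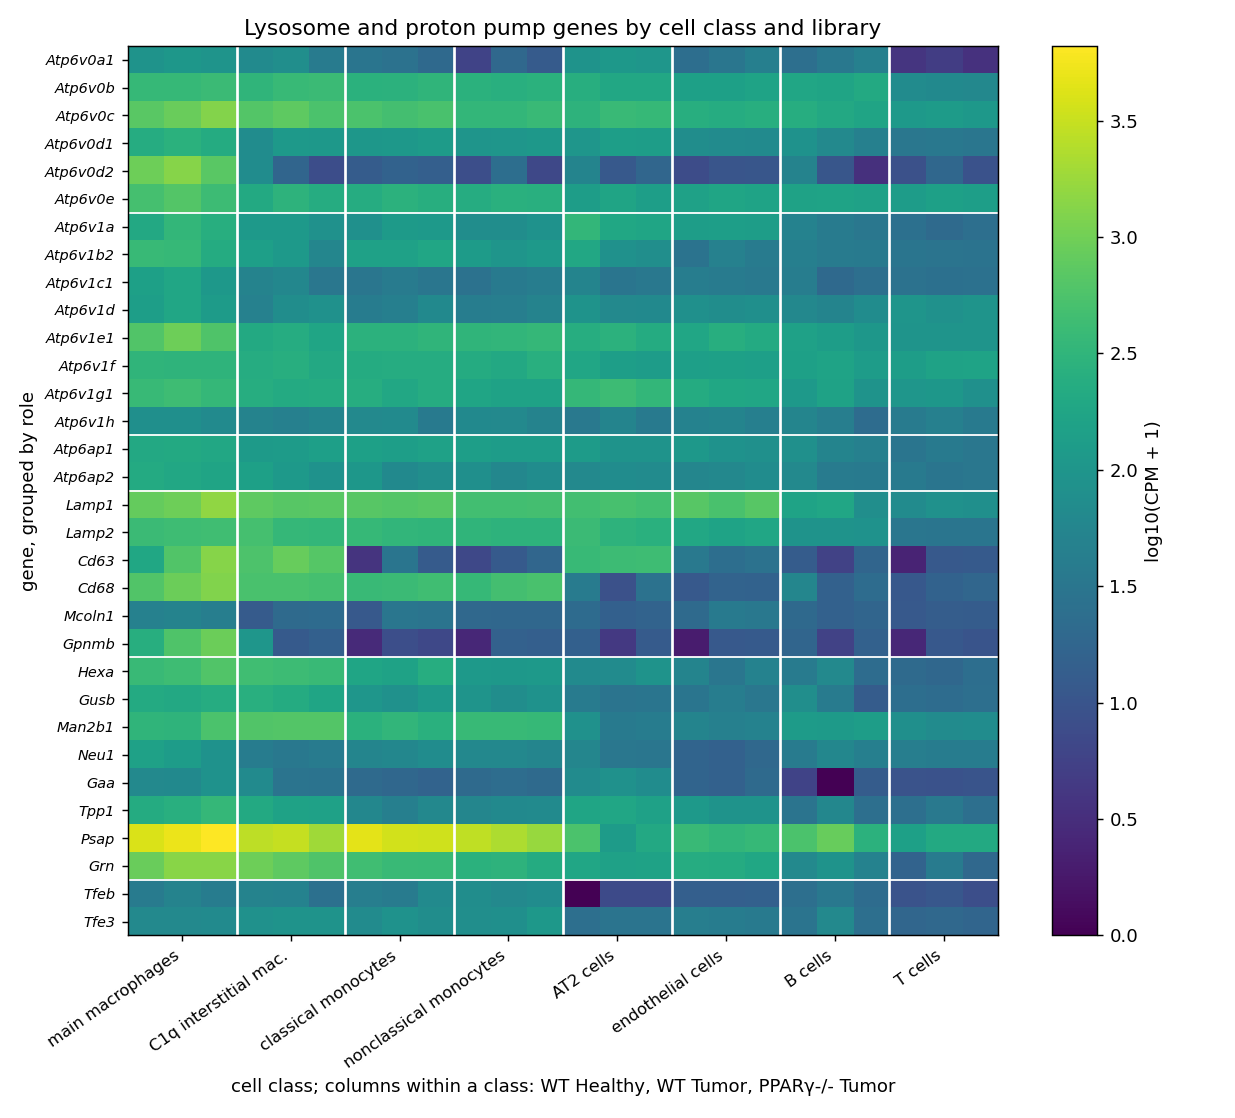
Level of each of the 32 genes as log10(CPM + 1) (colour) in 8 cell classes (horizontal), with WT Healthy, WT Tumor and PPARγ-/- Tumor side by side in each class; genes are grouped by role (vertical). Columns of the main macrophages are the brightest for most genes, and Atp6v0d2 and Gpnmb are dark outside them.

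Within V0, Atp6v0d2 was the subunit with the widest fold of main macrophages over monocytes, T cells, B cells and endothelial cells. It encodes the d2 form of the V0 d subunit, known from osteoclasts and macrophages, and lies at chr4:19876841-19922605 (GRCm38, minus strand). Its level was 944, 1326 and 690 CPM in the main macrophages of WT Healthy, WT Tumor and PPARγ-/- Tumor. It was 7.35, 22.9 and 5.71 CPM in nonclassical monocytes and 7.96, 18.2 and 8.06 CPM in T cells. Monocyte and T cell values are alike and, as in the main macrophages, largest in WT Tumor. The T cell values are 1.47% to 2.86% of the level in free RNA (barcodes of 10 to 100 UMIs). Whether values this low are background or expression was not tested. Other alveolar macrophages also held Atp6v0d2, namely the cycling ones, given at the end, and cluster 14 of PPARγ-/- Tumor, at 930 CPM. The other d form, Atp6v0d1, was at 233, 279 and 222 CPM in the main macrophages and at 98.8, 101 and 109 CPM in nonclassical monocytes.

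Gpnmb, a transmembrane glycoprotein of phagosomes and lysosomes (chr6:49036546-49070929, plus strand), was likewise far above monocytes and T cells in the main macrophages. It was at 246, 581 and 914 CPM in the main macrophages. T cells had 1.70, 10.2 and 8.96 CPM and nonclassical monocytes 1.63, 14.2 and 13.3 CPM, and whether these are background was likewise not tested. Unlike the main macrophages, neither class was above WT Tumor in PPARγ-/- Tumor. Cycling alveolar macrophages, given at the end, also held Gpnmb. Cd63, a tetraspanin of late endosomes and lysosomes (chr10:128900989-128912822, plus strand), was at 190, 596 and 1340 CPM in the main macrophages. In nonclassical monocytes it was at 5.72, 11.1 and 17.1 CPM, whereas AT2 cells, the surfactant-producing epithelium, had 378, 418 and 424 CPM.

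The monocytes were not below the macrophages for each gene. Man2b1, a lysosomal alpha-mannosidase, was at 375, 371 and 363 CPM in nonclassical monocytes and at 313, 307 and 539 CPM in the main macrophages. Tfeb was at 74.3, 61.1 and 70.2 CPM in nonclassical monocytes against 38.2, 50.6 and 39.5 CPM in the main macrophages. Tfe3 was at 75.1, 79.7 and 108 CPM against 61.0, 62.2 and 66.7 CPM. Tfeb in WT Tumor and Tfe3 in WT Healthy and WT Tumor differed by less than 1.5-fold.

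WT Tumor was compared with WT Healthy to describe the genes in the main macrophages of tumour-bearing lung (cluster 14 over cluster 11). Of the 32 genes, 6 were higher (all genes measured 7.41%) and 0 lower (all genes 15.2%), and 24 had a ratio above 0 on the log2 scale. Their median log2 ratio was 0.18, against −0.16 for all 11549 genes measured. With ratios centred on the median gene, 7 of the 32 were higher and 0 lower, against 10.4% and 9.75% of all genes. Alveolar marker sums were 21170 CPM in WT Healthy and 20273 CPM in WT Tumor, of which Chil3 alone made up 13168 and 12001 CPM. Single markers differed between the clusters, such as Krt79 at 454 and 28.6 CPM, Fabp4 at 103 and 434 CPM and Car4 at 447 and 1125 CPM. A list of 14 dissociation stress genes summed to 3374 CPM in WT Healthy and 1639 CPM in WT Tumor, and its part in the ratios was not tested.

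The membrane proteins had the widest differences. Cd63 at 190 CPM in WT Healthy and 596 CPM in WT Tumor gave a log2 ratio of 1.65 (95% interval 1.59 to 1.72). Gpnmb at 246 and 581 CPM gave 1.24 (1.18 to 1.30). Cd68, a heavily glycosylated lysosomal protein used as a macrophage marker, was at 598 and 922 CPM, a log2 ratio of 0.62 (0.58 to 0.67). Lamp1 was at 836 and 960 CPM, Lamp2, its partner on the lysosomal membrane, at 398 and 432 CPM, and Mcoln1, a lysosomal calcium channel, at 47.4 and 50.3 CPM. These last 3 genes differed by less than 1.5-fold.

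In the proton pump, 2 V1 subunits passed the rule. Atp6v1a, the catalytic subunit, was at 201 CPM in WT Healthy and 338 CPM in WT Tumor, a log2 ratio of 0.75 (0.68 to 0.82). Atp6v1e1, a subunit of the peripheral stalk, was at 607 and 964 CPM, a log2 ratio of 0.67 (0.63 to 0.71). Among the V0 genes the ratio was widest for Atp6v0d2, at 0.49 (0.46 to 0.52), just under the limit. The pump genes and their 2 accessory genes together summed to 5472 CPM in WT Healthy and 6814 CPM in WT Tumor, and 11 of the 16 had a ratio above 0.

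Among the hydrolases and activators, Grn passed the rule. It encodes progranulin, which is cleaved to granulins in the lysosome, and was at 892 and 1383 CPM, a log2 ratio of 0.63 (0.60 to 0.67). Psap, the precursor of the saposins that help degrade sphingolipids, was at 4063 and 5144 CPM (0.34, 0.32 to 0.36). The 6 enzymes ranged from −0.21 for Neu1, a sialidase, to 0.19 for Tpp1, a peptidase. The 4 X-linked genes, Atp6ap1, Atp6ap2, Lamp2 and Tfe3, had log2 ratios of 0.03, −0.17, 0.12 and 0.03, and none passed the rule.

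**Figure D2:**
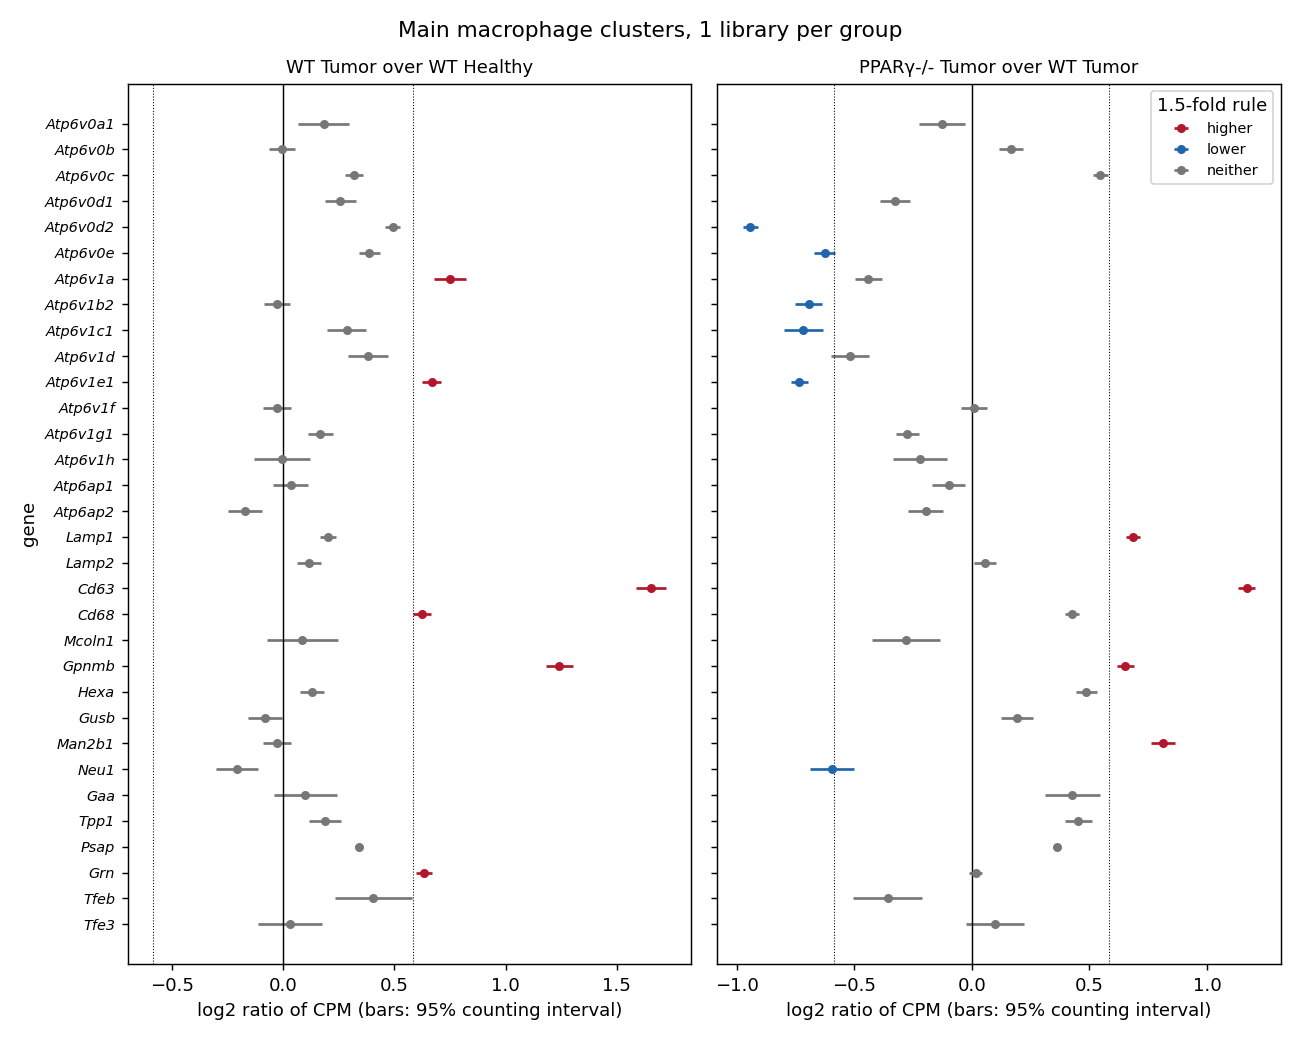
Log2 ratio of CPM (horizontal) of each of the 32 genes (vertical) in the main macrophage clusters, WT Tumor over WT Healthy on the left and PPARγ-/- Tumor over WT Tumor on the right; bars are 95% counting intervals and dotted lines mark 1.5-fold. On the left 6 genes are higher and 0 lower, and on the right 4 are higher and 6 lower.

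PPARγ-/- Tumor was compared with WT Tumor to describe the genes in macrophages of mice designed to lack Pparγ in cells with Csf1rCre (cluster 17 over cluster 14). Of the 32 genes, 4 were higher (all genes measured 14.8%) and 6 lower (all genes 18.5%), with a median log2 ratio of −0.04 against −0.14 for all 12075 genes measured. The 16 pump and accessory genes had 0 higher and 5 lower, with a median of −0.30 and 13 of 16 below 0. The other 16 had 4 higher and 1 lower, with a median of 0.39 and 13 of 16 above 0. These shares of the 32 genes are near those of all genes. The difference between the pump genes and the other 16 was not tested. Centred on the median gene, 7 of the 32 were higher and 2 lower, against 18.1% and 13.7% of all genes.

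In summed level, the pump and accessory genes were at 5472, 6814 and 5484 CPM in WT Healthy, WT Tumor and PPARγ-/- Tumor. The other 16 genes were at 8724, 11569 and 15533 CPM. The pump sum in PPARγ-/- Tumor was close to that in WT Healthy, whereas the other sum was highest in PPARγ-/- Tumor. Both comparisons use the WT Tumor library, so a high or low value there enters both with opposite sign. Sums of interstitial or monocyte-derived macrophage markers were 135, 124 and 5453 CPM in the 3 clusters, with each of the 12 detected in the tumour clusters. In PPARγ-/- Tumor most of this sum was C1qa, C1qb and C1qc, at 1890, 1937 and 1109 CPM. Folr2, Lyve1, Cd163 and Stab1 were at 0.613, 0.255, 1.48 and 3.88 CPM there. Cd14 was at 112, 56.2 and 75.6 CPM in the 3 clusters. Sums of classical monocyte markers were 525, 397 and 3196 CPM, and of alveolar markers 21170, 20273 and 13239 CPM. Chil3 alone made up 13168, 12001 and 10321 CPM of the alveolar sums. The part of this marker difference in the ratios below was not tested apart from the cluster comparisons that follow.

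In V0, Atp6v0d2 was at 1326 CPM in WT Tumor and 690 CPM in PPARγ-/- Tumor, 1.92-fold lower, with a log2 ratio of −0.94 (−0.97 to −0.91). Atp6v0e, a small membrane subunit, was at 634 and 411 CPM (−0.63, −0.67 to −0.58), a call held in 9 of 15 other settings of the processing. Atp6v0c, which forms the proton-carrying ring, went the other way. It was at 881 and 1287 CPM, a log2 ratio of 0.55 (0.52 to 0.58) that stays under 1.5-fold. The annotation lists 2 processed pseudogenes of Atp6v0c that are not among the counted genes, so its reads could be split or lost. Atp6v0a1, a form of the proton-channel subunit, was at 104 and 94.9 CPM, Atp6v0b, another ring subunit, at 356 and 400 CPM, and Atp6v0d1 at 279 and 222 CPM, all under 1.5-fold.

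In V1, 7 of 8 genes were below 0, as was the median of all genes, and 3 were lower (all genes 18.5%). Atp6v1e1 was at 964 CPM in WT Tumor and 580 CPM in PPARγ-/- Tumor (−0.73, −0.77 to −0.70). Atp6v1b2, the nucleotide-binding B subunit, was at 361 and 223 CPM (−0.69, −0.75 to −0.64). Atp6v1c1, which takes part in sector assembly, was at 180 and 109 CPM (−0.72, −0.80 to −0.63). The calls of Atp6v1e1, Atp6v1b2 and Atp6v1c1 held in 13, 11 and 10 of 15 other settings. Centred on the median gene, Atp6v1e1 kept its call and Atp6v1b2 and Atp6v1c1 lost theirs. The other subunits differed by less than 1.5-fold. Atp6v1a was at 338 and 249 CPM, Atp6v1d at 180 and 126 CPM, and Atp6v1g1, a peripheral stalk subunit, at 427 and 353 CPM. Atp6v1h, a regulatory subunit, was at 78.1 and 67.1 CPM. Atp6v1f, a central stalk subunit, was at 307 and 309 CPM, a log2 ratio of 0.01. The accessory genes Atp6ap1, a chaperone of pump assembly, and Atp6ap2, the prorenin receptor, had log2 ratios of −0.10 and −0.20.

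The membrane proteins were the group with the highest median, 0.54. Cd63 was at 596 CPM in WT Tumor and 1340 CPM in PPARγ-/- Tumor, a log2 ratio of 1.17 (1.13 to 1.20). Lamp1 was at 960 and 1543 CPM (0.68, 0.66 to 0.71). Gpnmb was at 581 and 914 CPM (0.65, 0.62 to 0.69). Thus the 3 genes called higher here were 1.57-fold to 2.25-fold above WT Tumor. Cd68 was at 922 and 1239 CPM (0.43), Lamp2 at 432 and 449 CPM (0.06) and Mcoln1 at 50.3 and 41.4 CPM (−0.28).

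Of the 8 hydrolases and activators, 7 were above 0. Man2b1 passed the rule, at 307 CPM in WT Tumor and 539 CPM in PPARγ-/- Tumor (0.81, 0.76 to 0.86). Psap was at 5144 and 6610 CPM (0.36), Hexa, the alpha chain of beta-hexosaminidase, at 427 and 599 CPM (0.49), and Tpp1 at 256 and 351 CPM (0.45). Gaa, the acid alpha-glucosidase that degrades glycogen, was at 65.1 and 87.6 CPM (0.43), and Gusb, beta-glucuronidase, at 201 and 230 CPM (0.19). Grn was at 1383 and 1399 CPM (0.02). Neu1 was lower, at 131 and 86.4 CPM, a log2 ratio of −0.59 (−0.69 to −0.50) just past the limit. Tfeb was at 50.6 and 39.5 CPM (−0.36) and Tfe3 at 62.2 and 66.7 CPM (0.10), neither past 1.5-fold.

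The 7 genes with CACGTG in the promoter did not share a direction in this comparison. Lamp1 was higher, Atp6v0e was lower, and Atp6v0b, Atp6v0d1, Atp6v1a, Gaa and Mcoln1 passed the rule in neither direction.

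**Figure D3:**
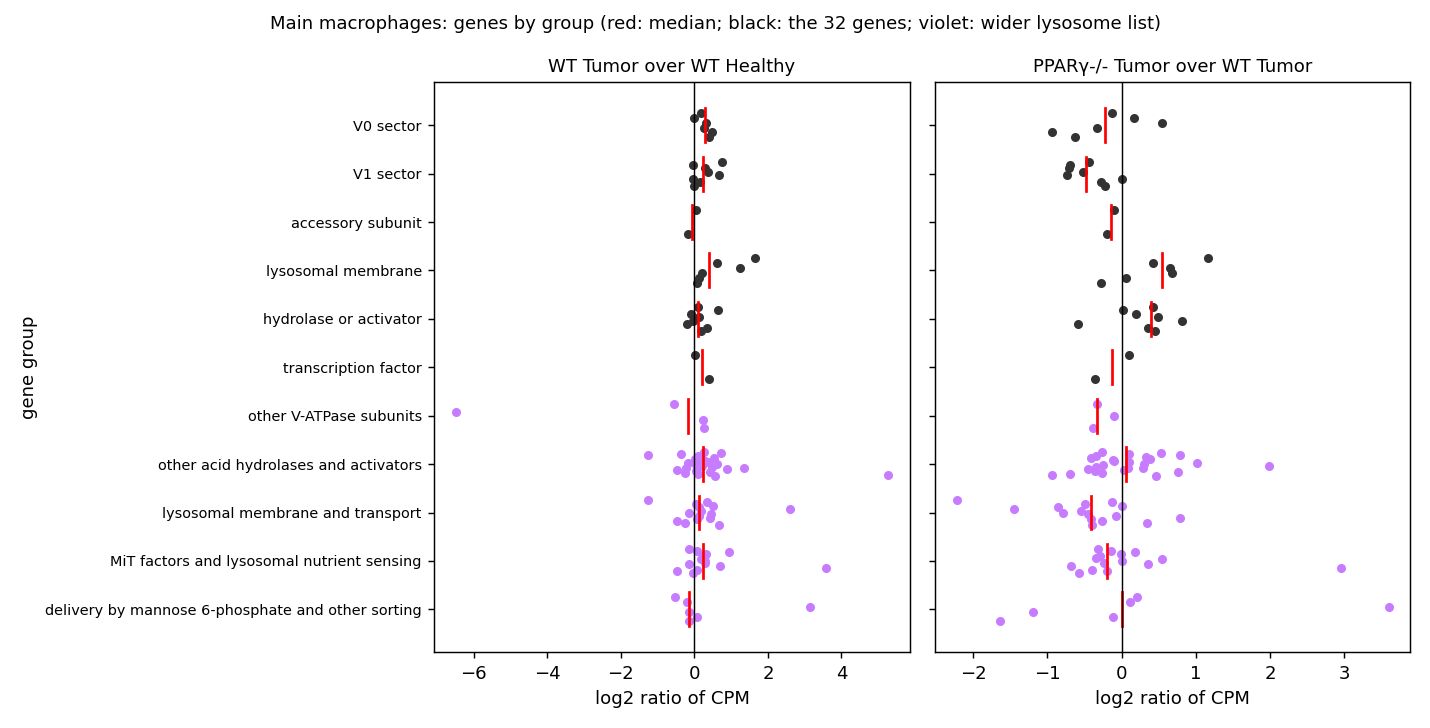
Log2 ratio of CPM (horizontal) in the main macrophages for the 32 genes by role (black) and for the wider lysosome list by group (violet), with each group's median in red. In PPARγ-/- Tumor over WT Tumor the V1 median is −0.48 and the lysosomal membrane median 0.54.

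PPARγ-/- Tumor also held 79 cells in cluster 14, the alveolar cluster that makes up the main macrophages of WT Tumor. A comparison within this library uses no counts of another library, but the clusters were drawn from the 3 libraries together. The 79 cells were thus picked for likeness, in genes other than the 32, to a cluster mostly of WT Tumor cells. Their nearness to WT Tumor and distance from cluster 17 may partly follow from that choice. In cluster 17 over these 79 cells, 7 of the 32 genes were higher (all genes 8.42%) and 4 lower (all genes 18.1%). Gpnmb was at 914 CPM in cluster 17 and 248 CPM in the 79 cells, a log2 ratio of 1.88 (1.70 to 2.07). Cd63 was at 1340 and 522 CPM (1.36, 1.23 to 1.49). Lamp1 was at 1543 and 977 CPM and Atp6v0c at 1287 and 709 CPM, both called higher, as were Cd68, Hexa and Psap. The genes called lower were Atp6v0a1, Atp6v1b2, Neu1 and Tfeb. Atp6v0d2 was at 690 and 930 CPM, a log2 ratio of −0.43 that did not pass the rule.

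The other way to hold the cluster fixed compares cluster 14 of PPARγ-/- Tumor with cluster 14 of WT Tumor. There 1 gene was higher (all genes 5.97%) and 3 were lower (all genes 3.66%). Gpnmb was at 248 CPM against 581 CPM in WT Tumor (−1.23, −1.41 to −1.04), opposite in sign to the comparison of main clusters. Cd63 was at 522 against 596 CPM (−0.19) and Lamp1 at 977 against 960 CPM (0.02). Atp6v0d2 was at 930 against 1326 CPM (−0.51) and Atp6v1e1 at 687 against 964 CPM (−0.49). Of clusters 14 and 17, the higher Cd63, Lamp1 and Gpnmb of PPARγ-/- Tumor were thus seen in cluster 17 and not in cluster 14. These 3 genes were also above WT Tumor in the 23 cycling alveolar macrophages of PPARγ-/- Tumor, given at the end. Atp6v0d2 and Atp6v1e1 were below WT Tumor in both cluster 17 and cluster 14, under 1.5-fold in cluster 14. Atp6v0a1 was the higher gene, at 162 against 104 CPM, and Atp6v1c1 and Mcoln1 were lower, at 117 against 180 CPM and 30.2 against 50.3 CPM. Pparg was at 284 CPM in these 79 cells.

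Cluster 17 shares C1q genes with cluster 23, the interstitial macrophages found in all 3 libraries, but not its levels of these genes. In WT Tumor the 174 cells of cluster 23 had Atp6v0d2 at 16.4 CPM, Gpnmb at 11.2 CPM and Cd63 at 852 CPM. In PPARγ-/- Tumor its 50 cells had 6.98, 14 and 650 CPM. Atp6v0d2 and Gpnmb were thus at the level of T cells in cluster 23 and at 690 and 914 CPM in cluster 17. All 32 genes summed to 10753 and 8713 CPM in cluster 23.

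**Figure D4:**
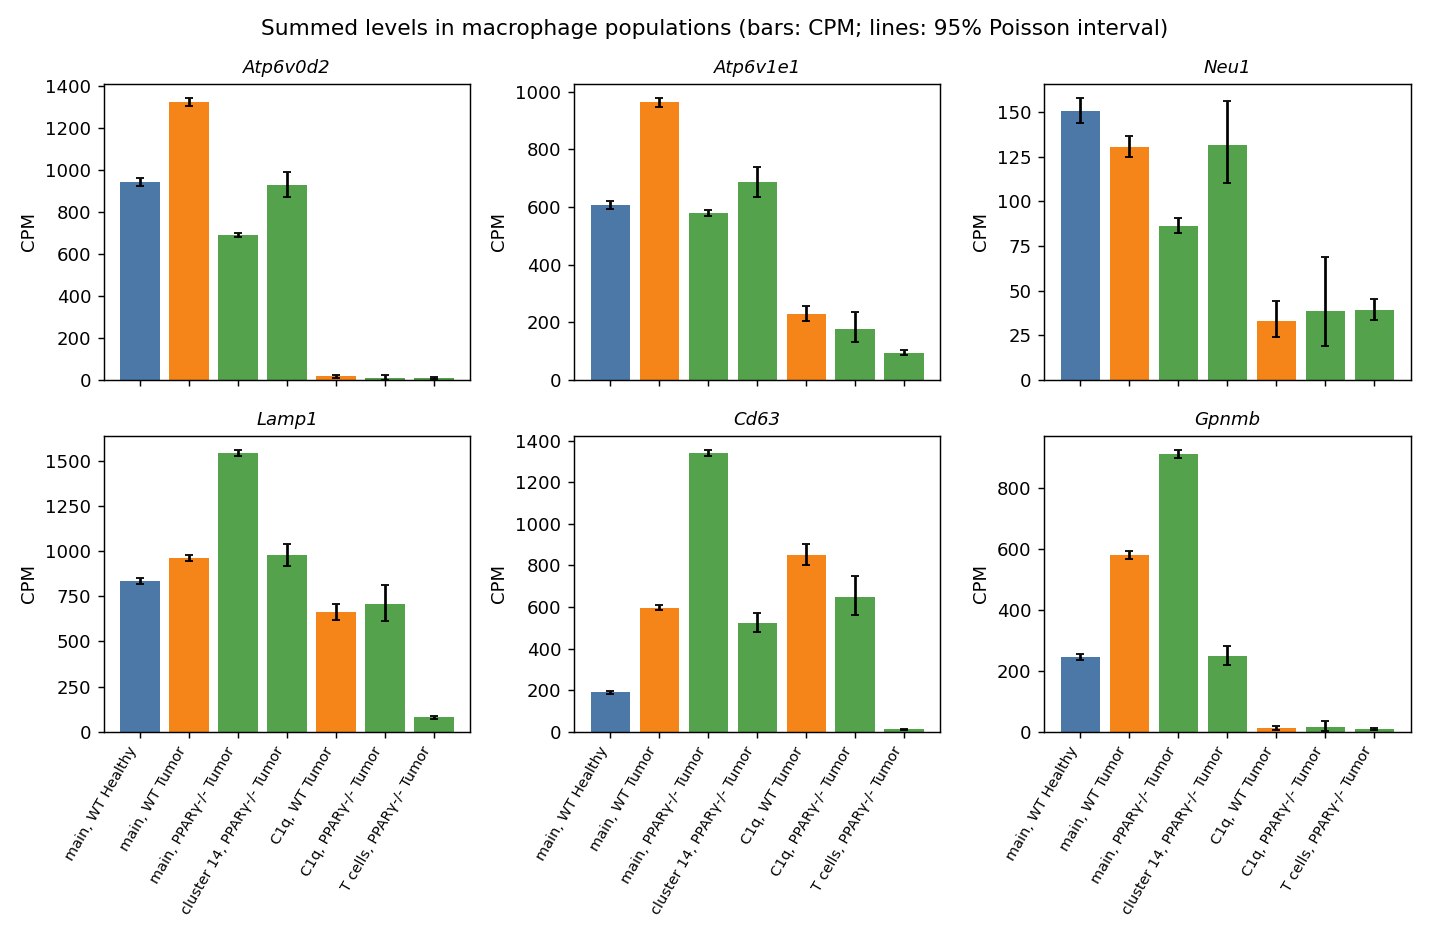
Summed level in CPM (vertical; lines are 95% Poisson intervals) of 6 genes in the main macrophages of each library, in the cluster 14 cells of PPARγ-/- Tumor, in C1q interstitial macrophages and in T cells (horizontal; colour is the library). Gpnmb is at 914 CPM in the main cluster of PPARγ-/- Tumor and at 248 CPM in its cluster 14 cells, whereas Atp6v0d2 is at 690 and 930 CPM.

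How the differences were spread over cells varied by gene. Cells were thinned to 1000 UMIs each, which equalises depth. Atp6v0d2 was then detected in 60.9% (95% Clopper-Pearson interval 57.6% to 64.1%) of main macrophages in WT Healthy, 66.7% (63.6% to 69.7%) in WT Tumor and 46.9% (44.0% to 49.9%) in PPARγ-/- Tumor. T cells of the same libraries gave 0.440%, 2.16% and 0.747%. The share was lowest in PPARγ-/- Tumor, as was the CPM. Without thinning the shares were 99.4%, 99.6% and 97.5%. Median depth in these main macrophages was 12827, 14892 and 16465 UMIs.

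Cd63 was detected after thinning in 13.7%, 40.5% and 69.5% of main macrophages, in the order of its CPM. Gpnmb was detected in 17.6% (15.1% to 20.2%), 39.6% (36.5% to 42.8%) and 39.1% (36.3% to 42.0%), and without thinning in 65.1%, 93.1% and 81.4%. So the share of Gpnmb cells in PPARγ-/- Tumor was not above that in WT Tumor, although its CPM was. The median cell had a Gpnmb level of 441 CPM in WT Tumor and 391 CPM in PPARγ-/- Tumor, whereas the 90th percentile was 1141 CPM in WT Tumor and 2023 CPM in PPARγ-/- Tumor. In PPARγ-/- Tumor the deeper cells had more Gpnmb, at 1176 CPM against 479 CPM in the shallower cells, split at the median depth. Lamp1 had a median of 1497 CPM per cell against 924 CPM, with a 10th percentile of 965 CPM.

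**Figure D5:**
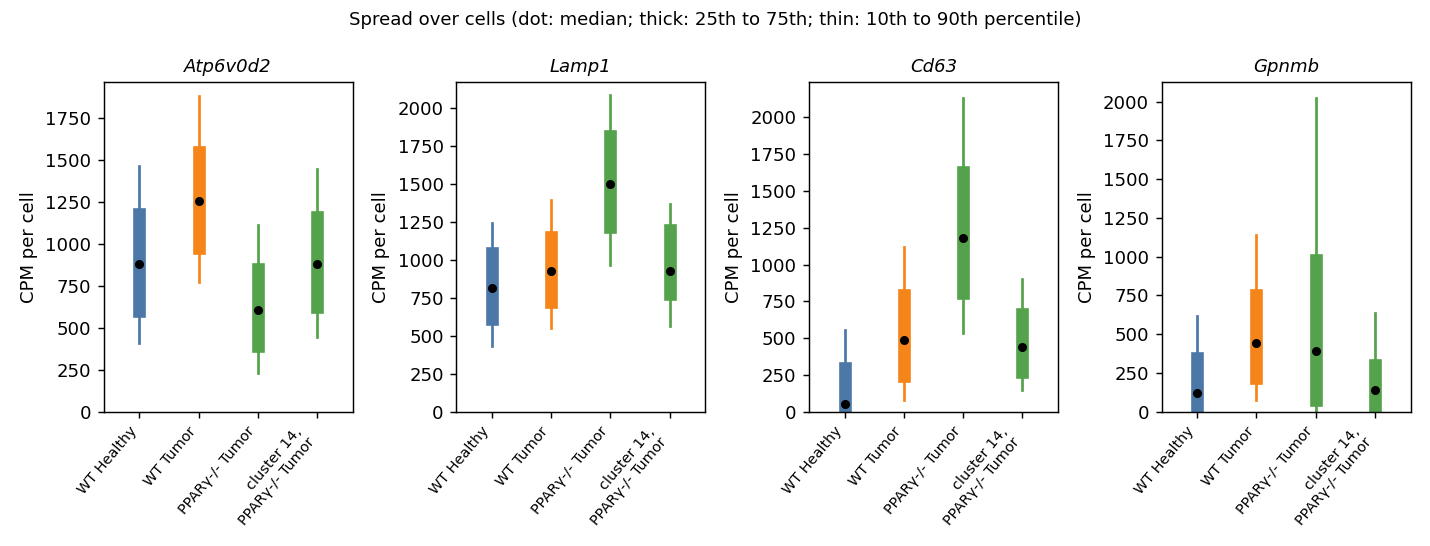
Spread of 4 genes over single cells as CPM per cell (vertical) in the main macrophages of the 3 libraries and the 79 cluster 14 cells of PPARγ-/- Tumor (horizontal); dots are medians, thick bars the 25th to 75th and thin bars the 10th to 90th percentile. Gpnmb in PPARγ-/- Tumor has a median of 391 CPM and a 90th percentile of 2023 CPM.

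Clustering at a finer resolution of 2.0 parted cluster 17 into groups of 534 and 621 cells. Gpnmb was at 282 CPM in the group of 534 and at 1422 CPM in the group of 621. Cd63 was at 978 and 1632 CPM, Lamp1 at 1377 and 1677 CPM and Atp6v0d2 at 542 and 810 CPM. Gpnmb and Cd63 differed more than 1.5-fold between the groups, and Lamp1 and Atp6v0d2 less. These values are a description, since the groups were drawn from the same cells. The group of 534 had the larger sum of interstitial markers, 7130 against 4102 CPM, and of dissociation stress genes, 2862 against 1083 CPM. The finer groups of the other main clusters were alike in this. In WT Healthy (53 and 840 cells) stress genes were at 7294 and 3083 CPM and Gpnmb at 148 and 253 CPM. In WT Tumor (59 and 855 cells) stress genes were at 4198 and 1465 CPM and Gpnmb at 346 and 603 CPM. The part of stress genes in these Gpnmb differences was not tested.

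The wider list of 71 lysosome genes gives the setting of the 32. In the main macrophages, WT Tumor over WT Healthy, 11 of 66 measured genes were higher (all genes 7.41%) and 3 lower (all genes 15.2%). The highest ratios were those of Sgsh, a sulfamidase (0.423 CPM in WT Healthy, 16.3 in WT Tumor), Rragd, a nutrient-sensing GTPase (0.339 and 4.03), Igf2r, a mannose 6-phosphate receptor (0.339 and 3.01), and Lamp3 (0.593 and 3.62). All 4 rest on 7 UMIs or fewer in WT Healthy. The lowest were Atp6v0e2, a form of the V0 e subunit with 72 UMIs in WT Healthy and 1 in WT Tumor (log2 ratio −6.48, −11.8 to −3.96), Cd164, a sialomucin (1036 and 429 CPM), Arsb, arylsulfatase B (43.3 and 18 CPM), and Atp6v0a2, a V0 a subunit (44.0 and 29.8 CPM, under 1.5-fold as 0.68 of the WT Healthy level with an interval that excludes 1).

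In PPARγ-/- Tumor over WT Tumor, 7 of 65 measured genes of the wider list were higher (all genes 14.8%) and 9 lower (all genes 18.5%), both shares below those of all genes. Igf2r was at 3.01 CPM in WT Tumor and 36.5 CPM in PPARγ-/- Tumor, and Rragd at 4.03 and 31.2 CPM. Glb1, beta-galactosidase, was at 30.8 and 62.2 CPM. The lowest were Cd164 at 429 and 92.1 CPM, the sorting receptor Sort1 at 370 and 119 CPM, Lamp3 at 3.62 and 1.33 CPM, and M6pr, the other mannose 6-phosphate receptor, at 347 and 152 CPM. The sorting receptors thus went both ways, with Igf2r higher and Sort1 and M6pr lower. The other pump subunits measured, Tcirg1, Atp6v0a2 and Atp6v1g2, had log2 ratios of −0.38, −0.34 and −0.11, all under 1.5-fold. Tcirg1 was at 121, 145 and 111 CPM in the 3 libraries.

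In the other cell classes few of the 32 genes passed the rule. Some of the 32 had too few UMIs to be measured in some classes, whereas the shares of all genes are of genes measured. Of 46 calls outside the main macrophages, those in cluster 14 included, 33 held without the cell richest in the gene in each library, and the other 13 no longer passed or fell under 20 UMIs. Nonclassical monocytes had 3 higher (all genes 5.06%) and 0 lower (all genes 5.4%) in WT Tumor over WT Healthy, namely Atp6v0a1, Atp6v0d2 and Gpnmb, each on 37 UMIs or fewer. They had 0 higher (all genes 4.51%) and 1 lower (all genes 4.64%), Atp6v0d2, in PPARγ-/- Tumor over WT Tumor. T cells had 4 higher (all genes 7.77%) and 0 lower (all genes 4.33%) in WT Tumor over WT Healthy, namely Atp6v0d2, Cd63, Gpnmb and Grn. T cells had 0 higher (all genes 1.89%) and 2 lower (all genes 3.83%), Atp6v0d2 and Grn, in PPARγ-/- Tumor over WT Tumor. Atp6v0d2, Cd63 and Gpnmb are read as background in T cells and nonclassical monocytes, which was not tested, so these calls are not read as expression. T cell Grn, at 15.3, 37.3 and 18.6 CPM, was at 2.35% to 4.67% of its level in free RNA. Free RNA held Grn at 548, 799 and 791 CPM and was thus alike in the tumour libraries. Whether the T cell counts of Grn are background or expression was not tested.

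Classical monocytes had 2 higher (all genes 3.78%) and 1 lower (all genes 5.61%) in WT Tumor over WT Healthy, on 21 UMIs or fewer for the higher genes. The class had 2 higher (all genes 3.89%) and 1 lower (all genes 2.97%) in PPARγ-/- Tumor over WT Tumor. Hexa was among the higher genes, at 158 CPM in WT Tumor and 239 CPM in PPARγ-/- Tumor, a call lost without the richest cell of each library (0.57). Endothelial cells had 2 higher (all genes 5.8%) and 1 lower (all genes 6.53%) in WT Tumor over WT Healthy, and the lower gene was Hexa. They had 1 higher (all genes 4.42%), which was Hexa, and 0 lower (all genes 3.39%) in PPARγ-/- Tumor over WT Tumor. Endothelial Hexa was at 51.6, 30.6 and 48.3 CPM in WT Healthy, WT Tumor and PPARγ-/- Tumor, on 54, 34 and 66 UMIs.

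Psap was the gene with calls in most of the remaining classes. B cells had 1 higher (all genes 8.57%), which was Psap, and 2 lower (all genes 7.34%) in WT Tumor over WT Healthy. The count was 0 higher (all genes 3.81%) and 5 lower (all genes 7.76%) in PPARγ-/- Tumor over WT Tumor. B cell Psap was at 548, 868 and 282 CPM in the 3 libraries, and 1 cell of WT Tumor held 66 of its 183 UMIs. Without the cell richest in Psap in each library, WT Tumor was at 583 CPM against 494 in WT Healthy and the higher call was lost (log2 ratio 0.24, −0.11 to 0.58). The lower call in PPARγ-/- Tumor held (−1.32, −1.73 to −0.92). In AT2 cells, PPARγ-/- Tumor over WT Tumor, 3 were higher (all genes 3.43%) and 0 lower (all genes 5.31%), namely Cd68, Gpnmb and Psap. Psap was at 122 CPM in WT Tumor and 203 CPM in PPARγ-/- Tumor there, but 1 cell held 153 of the 522 UMIs in PPARγ-/- Tumor. Without the richest cell of each library the AT2 values were 119 and 145 CPM and the call was lost (0.29, 0.07 to 0.51). These AT2 levels were 4.38% and 5.92% of the level in free RNA and no higher than in T cells, at 209 CPM in both libraries. AT2 levels of Cd68 were 7.72 and 26.9 CPM, against 14.6 and 17.2 CPM in T cells. Those of Gpnmb were 3.31 and 11.3 CPM, against 10.2 and 8.96 CPM. In PPARγ-/- Tumor 1 AT2 cell held 33 of the 69 Cd68 UMIs. Without the richest cell of each library the Cd68 call held, at 6.33 and 14.2 CPM (1.16, 0.29 to 2.09), and Gpnmb fell under 20 UMIs.

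In the C1q interstitial macrophages, PPARγ-/- Tumor over WT Tumor, 0 were higher (all genes 3.92%) and 3 lower (all genes 3.68%), namely Atp6v0a1, Atp6v1b2 and Psap. Psap was at 3029 CPM in WT Tumor and 1917 CPM in PPARγ-/- Tumor there. Cluster 9, led by Mgl2 and Ccl17 and left unnamed, had 2 higher (all genes 7.3%) and 2 lower (all genes 7.73%) in WT Tumor over WT Healthy. The cluster had 0 higher (all genes 2.76%) and 4 lower (all genes 4.14%) in PPARγ-/- Tumor over WT Tumor. Its Psap was at 3029 CPM in WT Healthy and 1572 CPM in WT Tumor. Both of these Psap calls held without the richest cell of each library.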

How the data were processed

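Sorted lung cells were sequenced by a droplet 3′ protocol. The deposited UMI counts are raw per gene and barcode. Per the submitters' processing notes the authors used Cell Ranger 6.0.1, Seurat 4.0.1 and mm10, whereas the file headers name Cell Ranger 4. Library depth was 30454790, 46148658 and 44548318 UMIs in WT Healthy, WT Tumor and PPARγ-/- Tumor.

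Scrublet in scanpy 1.11.5 removed 66, 102 and 146 barcodes, leaving 2881, 4272 and 4991 cells. Leiden clusters (resolution 1.0) came from 2000 variable genes, 30 principal components and 15 neighbours, without integration. A cluster name needed 3 markers at 4-fold over the median cluster (10 CPM added) in 10% of cells. These thresholds and the choice of main macrophages were set after the data were seen, and the genes and lists were chosen with earlier results of these data known. Named genes are the 32, the 4 highest and 4 lowest ratios of the wider list and its other pump subunits. One gene that this rule names is not reported here.

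Counts were summed per cluster and library as CPM. Ratios have exact conditional binomial 95% intervals, for genes with 20 UMIs over both libraries, in classes of 50 cells. The interval method was checked on simulated counts drawn with counting error only. That check does not cover variation between cells, mice or libraries.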

Additional observations from a re-analysis of the deposited data

Results flagged for a closer look

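Some genes had a called difference in opposite directions in 2 cell classes of the same comparison, with at least 100 UMIs over both libraries in each, a limit set after the data were seen. None of these differences between classes was tested. In PPARγ-/- Tumor over WT Tumor, Gpnmb was higher in the main macrophages and lower in cluster 14, 1.88 apart on the log2 scale, with the WT Tumor cells the same in both. Cd63 was higher in the main macrophages and lower in the Mgl2 and Ccl17 cluster, 2.24 apart, with 19 UMIs in PPARγ-/- Tumor in the latter. Atp6v0a1 was higher in cluster 14 and lower in the C1q interstitial macrophages (1.65 apart) and the Mgl2 and Ccl17 cluster (1.86 apart), on 11 and 13 UMIs in PPARγ-/- Tumor. Psap was higher in AT2 cells and lower in B cells (2.36 apart) and in C1q interstitial macrophages (1.40 apart), but without the cell richest in Psap in each library the AT2 call was lost (0.29). In WT Tumor over WT Healthy, Psap was higher in B cells and lower in the Mgl2 and Ccl17 cluster, 1.61 apart, and the B cell call was likewise lost (0.24).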

How the results depend on the processing

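No paired analysis was possible because each group is 1 library. For WT Tumor over WT Healthy the count of 6 higher genes held within 1.5 times under the alternatives run, except with all macrophages and monocytes together, where it was 3. Cd63 and Gpnmb kept their call in 14 of 14. For PPARγ-/- Tumor over WT Tumor, 4 higher and 6 lower became 7 and 2 centred on the median gene, 9 and 3 at Leiden 2.0 and 9 and 3 with each library clustered alone. The count of lower genes was 2 at a mitochondrial limit of 5% and 1 with all macrophages and monocytes together. Of 15 alternatives, the lower call held in 14 for Atp6v0d2, 13 for Atp6v1e1, 11 for Atp6v1b2, 10 for Atp6v1c1, 9 for Atp6v0e and 7 for Neu1. Atp6v1b2, Atp6v1c1, Atp6v0e and Neu1 each lost it at a mitochondrial limit of 5%, centred on the median gene, and with all macrophages and monocytes together. Cells thinned to 1000 UMIs lost the Gpnmb call. Within cluster 14, an alternative chosen after seeing the data, 1 was higher and 3 lower, and Cd63 (−0.19), Gpnmb (−1.23) and Neu1 (0.0139) reversed. The cause of these moves was not tested. Leaving out the cell richest in a gene in each library, also chosen after seeing the data, kept 33 of 46 calls outside the main macrophages. Without thinning, shares of cells with a UMI were 99.4%, 99.6% and 97.5% for Atp6v0d2 and 65.1%, 93.1% and 81.4% for Gpnmb. A single library per group, pooled mice and counting intervals alone limit each comparison, and classes of few cells limit the genes read in them.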

Other observations

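Cycling alveolar macrophages formed a cluster with 45, 95 and 23 cells in WT Healthy, WT Tumor and PPARγ-/- Tumor, too few for the comparisons above. Cd63 was at 104, 358 and 738 CPM in them, Gpnmb at 242, 332 and 747 CPM, and Atp6v0d2 at 641, 930 and 528 CPM. Lamp1 was at 765, 872 and 1302 CPM and Psap at 2862, 3805 and 5248 CPM. No ratio was called for these values, since the cells of PPARγ-/- Tumor are few.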
